A study of Mus musculus with 16 samples.

Results

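The 10 genes described here are Hspa5, Hsp90b1, Calr, Pdia4, Xbp1, Ddit3, Atf4, Trib3, Asns and Herpud1, a list of genes of the endoplasmic reticulum (ER) stress response and the integrated stress response that was chosen by gene symbol. They are 10 of the 37003 genes counted, and all 10 had enough reads to be tested. The counts come from RNA-seq of endothelial cells sorted from adult mouse brain, in 4 groups of 4 libraries that cross genotype with operation. Every mouse carried floxed alleles of Yap and Taz (gene symbols Yap1 and Wwtr1), a pair of transcriptional co-activators of the Hippo pathway, and both genotypes were given tamoxifen before surgery. YT-iKO mice also carried Pdgfb-iCreER-eGFP, a tamoxifen-dependent Cre recombinase under the promoter of Pdgfb, which is active in endothelial cells. CTRL littermates lacked that transgene, so the groups also differ in the presence of Cre and eGFP. MCAo stands for occlusion of the middle cerebral artery for 30 min followed by reperfusion, a model of ischemic stroke, and sham mice had the operation without the occlusion. Cells were collected 72 h after surgery and sorted as DAPI-, CD45- and CD31+, and each library pooled the tissue of several mice. The study used male and female mice, and the sex of each pool is not given in the labels. The p-values therefore measure the spread between pools.

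The ER folds secreted and membrane proteins, and unfolded protein in its lumen is sensed by IRE1 (Ern1), PERK (Eif2ak3) and ATF6 in what is called the unfolded protein response. Activated IRE1 cuts a short stretch out of the Xbp1 mRNA, which shifts the reading frame and yields the active transcription factor. PERK is one of several kinases that phosphorylate eIF2alpha, which lowers translation in general but raises that of Atf4, and ATF4 in turn drives Ddit3, Trib3 and genes of amino acid supply in the integrated stress response. In endothelial cells both branches are known to respond to hypoxia, altered flow and a high secretory load.

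The libraries held 11418262 to 23074547 counts (median 16441012), of which 3.31% to 5.91% were mitochondrial. Yap1 and Wwtr1 were lower in every YT-iKO library than in every CTRL library, with Yap1 at 37.1 to 63.0 CPM (counts scaled to the same library size) against 80.5 to 132.6 and Wwtr1 at 45.0 to 136.4 against 234.5 to 437.6. All 10 endothelial markers listed were detected in every library. An even read background differed among libraries: reads on 1466 chemosensory receptor genes, which brain endothelium is not known to use, amounted to 0.0308 to 0.576 CPM per kilobase of exon, highest in YT-iKO sham library 3 and YT-iKO MCAo library 2. In both MCAo groups it was higher in libraries 2 and 3 (0.328 to 0.576) than in libraries 1 and 4 (0.0308 to 0.164), and the totals of the former were lower (11418262 to 12791352 against 18662626 to 23074547). CPM below were scaled with TMM factors over all genes tested unless the scale is named. On that scale the members' log2(CPM + 1) correlated with the log2 background over the 16 libraries with Pearson's r of -0.861 to -0.421 (median -0.692), and with TMM factors from 9132 genes that averaged 10 CPM or more, called the abundant-gene scale here, with r of -0.471 to 0.435 (median -0.113). These r describe libraries that share their scaling factor, and no p is given. The abundant-gene scale was known from earlier results of these data, and it is given beside the first scale where it changes a call.

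Among the 10 members, Xbp1 was the one that rose after MCAo, joined by Asns on the abundant-gene scale, where 5.14% of all genes were called. Averaged over the genotypes the level of Xbp1 was 2.90-fold higher after MCAo than after sham, a log2 fold change of 1.54 ± 0.24 (SE, 4 libraries a group). The other 9 members had log2 fold changes of -0.03 to 0.42 in that comparison, and none of them passed edgeR's test, while limma-voom called 5 of them lower, in a fit that called 17018 of the 31085 genes tested. In the comparison of YT-iKO with CTRL averaged over the operations no member passed edgeR's test, with log2 fold changes of -0.37 for Calr to 0.39 for Trib3. On the abundant-gene scale Trib3 passed, beside 1.78% of all genes, and limma-voom called Trib3, Calr and Hspa5, beside 746 of the 31085 genes.

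Levels between genes are compared per kilobase of annotated exon. In CTRL sham, Calr, which encodes the lectin chaperone calreticulin, was highest at 105.2 ± 16.8 CPM per kilobase (SD, n = 4), followed by Hsp90b1, the ER member of the HSP90 family, at 60.0 ± 7.5. Both lay above the next gene in every library. Hspa5 (the ER HSP70 chaperone BiP), Pdia4 (a protein disulfide isomerase), Atf4, Herpud1 (a membrane component of ER-associated degradation) and Xbp1 followed from 43.0 ± 5.0 down to 30.5 ± 1.8 CPM per kilobase, and neighbours in that stretch of the order overlapped. Ddit3, which encodes the transcription factor CHOP, was at 6.98 ± 1.02 and Trib3, a pseudokinase that binds ATF4 and AKT, at 5.95 ± 0.90 CPM per kilobase. Asns, which encodes asparagine synthetase, was lowest at 2.78 ± 0.31, below Trib3 in every library.

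Xbp1 moved up this order after MCAo. It held rank 7 in both sham groups, rank 2 in CTRL MCAo at 71.6 ± 33.6 CPM per kilobase and rank 1 in YT-iKO MCAo at 88.7 ± 48.1. In both MCAo groups its libraries overlapped those of Calr, which were at 88.9 ± 21.7 and 80.1 ± 27.9 CPM per kilobase. Asns stayed at rank 10 in all 4 groups.

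**Figure D1:**
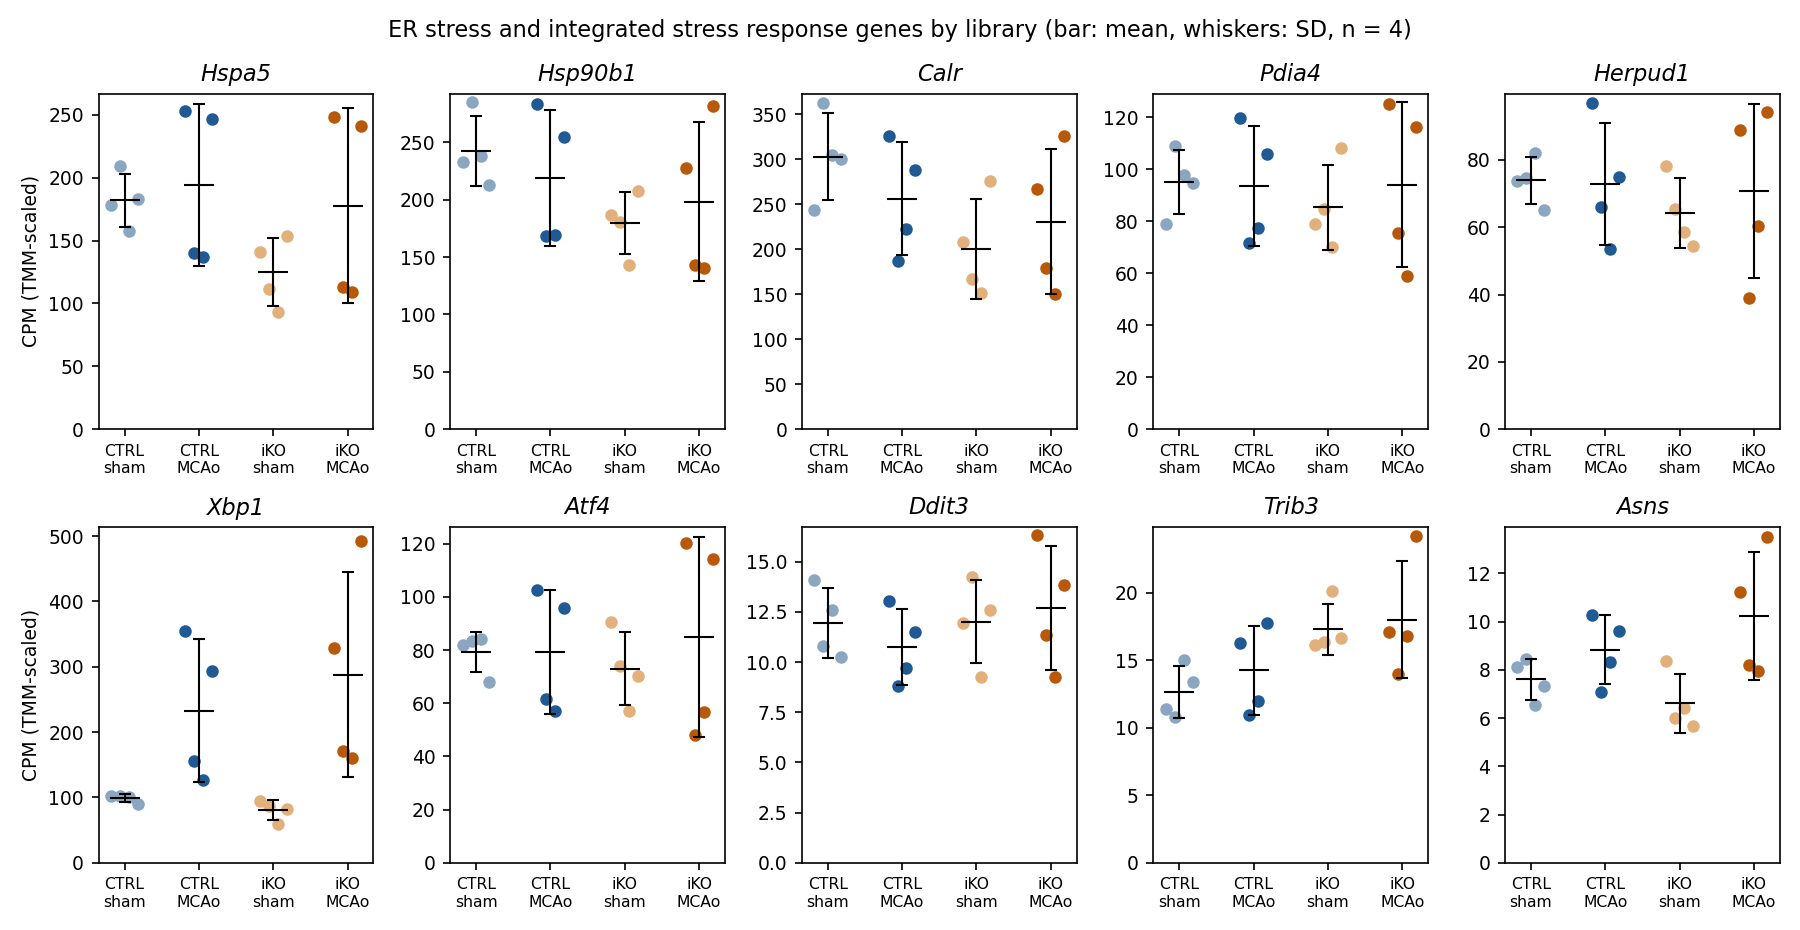
Level of each of the 10 members in CPM (TMM over all genes tested), with 1 point per library, libraries 1 to 4 of each group from left to right, and the group mean with its SD. Xbp1 is the panel in which all 8 MCAo libraries lie above all 8 sham libraries, and in most panels MCAo libraries 1 and 4 lie above MCAo libraries 2 and 3.

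Xbp1 (ENSMUSG00000020484, GRCm38 chr11:5520659-5525893, plus strand) encodes the transcription factor that drives much of the ER's folding and degradation machinery once its mRNA is spliced by IRE1. In CTRL sham its level was 102.0, 102.2, 101.0 and 90.4 CPM in libraries 1 to 4, and in CTRL MCAo 355.2, 155.3, 127.0 and 292.8 CPM. In YT-iKO sham it was 94.8, 87.6, 58.6 and 81.6 CPM, and in YT-iKO MCAo 328.4, 170.7, 161.0 and 492.3 CPM. Every MCAo library was above every sham library of its genotype, and within both MCAo groups libraries 1 and 4, those of low background, were above libraries 2 and 3.

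The group means were 98.9 ± 5.7 CPM in CTRL sham and 232.6 ± 109.2 CPM in CTRL MCAo, and 80.6 ± 15.6 and 288.1 ± 156.3 CPM in YT-iKO. By edgeR's quasi-likelihood test with Benjamini-Hochberg adjustment over 31085 genes, YT-iKO had a log2 fold change of 1.84 ± 0.34 with adjusted p = 0.0197 and the averaged one had adjusted p = 0.00109, past the threshold of 0.1. Of all genes tested 0.318% passed in YT-iKO and 1.23% in the averaged comparison, and of the members 1 of 10 passed in each, which was Xbp1. In CTRL the log2 fold change of Xbp1 was 1.23 ± 0.34 with adjusted p = 0.304, so 0 of 10 members passed there, beside 0.216% of all genes. At an unadjusted p under 0.05 there was 1 member in CTRL, beside 1089 of the 31085 genes. The libraries of MCAo and sham did not overlap for Xbp1 alone among the 10 members in CTRL and in YT-iKO, beside 4.14% and 1.28% of all genes without overlap. The exact two-sided permutation p on log2(CPM + 1) was 0.0286 in each genotype and 0.000408 averaged, in each case the smallest that the design can give.

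The call in YT-iKO was lost without YT-iKO sham library 4 (log2 fold change 1.845, adjusted p = 0.123) and in a fit of only the 2 YT-iKO groups (1.71, adjusted p = 0.112, with 17 of 27227 genes called), and the call in CTRL was gained without CTRL MCAo library 3 (adjusted p = 0.093) or without YT-iKO MCAo library 4 (0.0271). DESeq2 called Xbp1 in CTRL as well, with adjusted p = 0.00969, and limma-voom with sample quality weights gave smaller log2 fold changes, 0.73 in CTRL, 1.01 in YT-iKO and 0.87 averaged, all of which passed.

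With abundant-gene scaling the MCAo libraries of Xbp1 lay closer together. Its level was 95.3, 95.5, 92.5 and 86.2 CPM in CTRL sham and 275.8, 181.1, 160.2 and 265.9 CPM in CTRL MCAo. It was 85.5, 81.3, 78.7 and 85.8 CPM in YT-iKO sham and 288.7, 230.1, 198.4 and 361.2 CPM in YT-iKO MCAo. Here too every MCAo library lay above every sham library. The log2 fold changes were 1.26 ± 0.17 in CTRL (adjusted p = 0.00106 by edgeR), 1.70 in YT-iKO (adjusted p = 0.000106) and 1.48 ± 0.12 averaged, so that with this scaling Xbp1 passed in each of the 3 comparisons, beside 1.78% of all genes in CTRL and 1.72% in YT-iKO.

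A ratio within a library does not depend on the scaling factor. Xbp1 counts amounted to 11.1%, 8.87%, 10.1% and 9.46% of the summed counts of the other 9 members in CTRL sham, and to 29.1%, 21.5%, 17.03% and 26.5% in CTRL MCAo. In YT-iKO sham the ratio was 11.6%, 12.2%, 9.61% and 9.02%, and in YT-iKO MCAo 29.3%, 27.0%, 26.4% and 40.2%. The lowest MCAo library was above the highest sham library in both genotypes. The ratio shows that Xbp1 changed unequally to the rest of the list, and 905 to 7899 counts per library lie behind it.

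**Figure D2:**
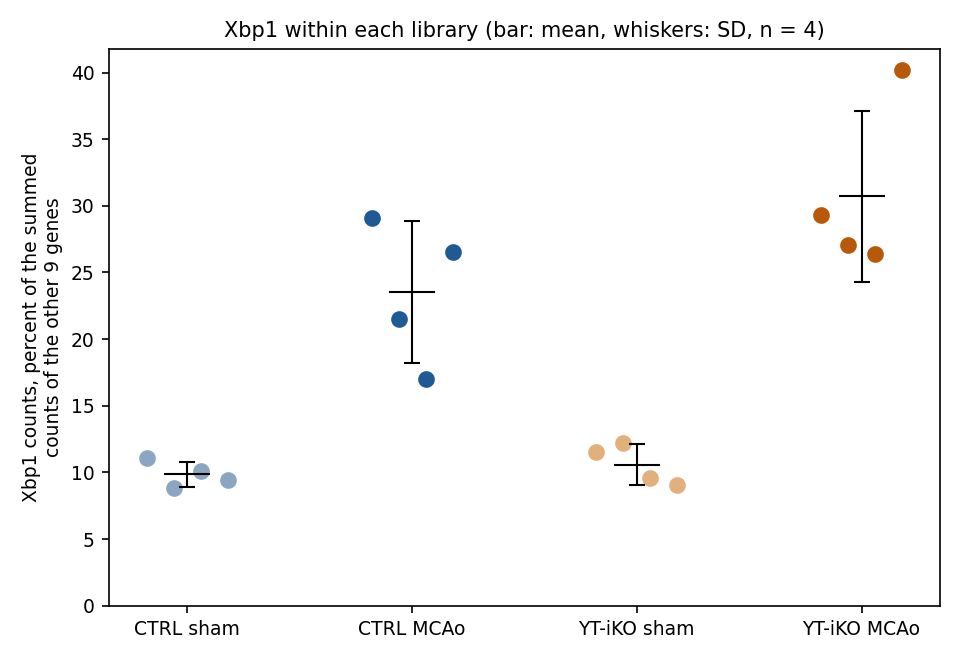
Xbp1 counts as a percentage of the summed counts of the other 9 members, with 1 point per library and the group mean with its SD. The sham libraries lie at 8.87% to 12.2% and the MCAo libraries at 17.03% to 40.2%.

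Whether the response of Xbp1 differed between the genotypes was tested as an interaction. The log2 fold change was 0.60 ± 0.47 larger in YT-iKO, with a 95% interval of -0.32 to 1.53, and adjusted p = 1.00 by edgeR. That difference was 0.21 to 0.80 over the fits that left out 1 library. It was 0.45 on the abundant-gene scale, and 0.28 with the background as a covariate and with limma-voom. None of the 10 members passed in that comparison, neither did any gene (0%), and DESeq2 called no member. At an unadjusted p under 0.05 there were 0 members, beside 116 of the 31085 genes tested. The interval includes a smaller, an equal and a larger response in YT-iKO.

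The counts are per gene and do not separate the unspliced from the spliced mRNA. The stretch that IRE1 removes is shown because it is the part of the transcript that a gene count cannot follow. It is 26 bases long and was found in the GENCODE transcripts Xbp1-201, Xbp1-203 and Xbp1-204 by the letters CNGCAGC at both ends, with the cut after the third base. It lies at GRCm38 chr11:5524279-5524304 on the plus strand, in the coding sequence of exon 4 of Xbp1-201 and of exon 3 of the other transcripts, and is in capitals here within chr11:5524262-5524321.
Xbp1: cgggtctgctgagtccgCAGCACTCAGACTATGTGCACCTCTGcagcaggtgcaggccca

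Some markers of other cell types and some immediate early genes moved with the operation as well. In the averaged MCAo comparison the fibroblast genes Dcn (log2 fold change 2.13, adjusted p = 0.0045) and Col1a2 (0.77, adjusted p = 0.025), the astrocyte gene Gfap (0.80, adjusted p = 0.037) and the immediate early genes Junb (1.52, adjusted p = 0.0048), Fosb (2.05, adjusted p = 0.015) and Fos (1.90, adjusted p = 0.063) were called higher by edgeR, that is 2 of 4, 1 of 5 and 3 of 7 genes of these lists. Positive signs were held by 4 of the 4 fibroblast, 3 of the 5 astrocyte and 5 of the 7 immediate early genes. Of 5 pericyte markers 0 were called on this scale and 3 on the abundant-gene scale, with a summed level of 443 to 1377 CPM. The summed level of the 4 fibroblast markers was 10.5 to 12.8 CPM after sham and 19.3 to 26.5 after MCAo in CTRL, and 10.3 to 26.2 after sham and 21.8 to 26.4 after MCAo in YT-iKO. The 6 lymphocyte and plasma cell markers, a cell type that is known for high Xbp1, summed to 6.495 to 9.10 CPM after sham and 9.51 to 13.7 after MCAo in CTRL, which do not overlap, and to 8.10 to 14.8 after sham and 6.29 to 16.2 after MCAo in YT-iKO. Of single genes 4.14% did not overlap in CTRL. The read background enters sums this low, at 0.160 to 0.207 CPM per kilobase in CTRL sham and 0.105 to 0.392 in CTRL MCAo. Its part in them was not tested. None of these 6 genes was called by edgeR in an MCAo comparison, with a median log2 fold change of 0.64 in CTRL and of 0.07 in YT-iKO, and no marker listed was at 0 in every library. The part of other cells in the level of Xbp1 was not tested, and in bulk RNA fewer cells of a type and less RNA per cell cannot be told apart.

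The ER chaperones on the list did not pass edgeR's test in any MCAo comparison. Hspa5 (ENSMUSG00000026864, chr2:34771970-34777547, plus strand) was at 178.1, 209.1, 157.9 and 182.8 CPM in CTRL sham and 253.3, 140.4, 136.7 and 246.6 CPM in CTRL MCAo. In YT-iKO sham it was at 140.9, 111.8, 93.6 and 153.6 CPM and in YT-iKO MCAo at 248.5, 112.7, 109.0 and 240.7 CPM. In both genotypes MCAo libraries 1 and 4 were above all sham libraries, whereas libraries 2 and 3 lay below or among them. The log2 fold change of Hspa5 was 0.09 in CTRL, 0.51 ± 0.29 in YT-iKO and 0.30 ± 0.20 averaged, with a 95% interval of -0.10 to 0.70. For Hspa5 on the abundant-gene scale the averaged change was 0.28 ± 0.11 (adjusted p = 0.26 by edgeR). The exact permutation p of its averaged difference was 0.311 on the first scale and 0.0453 on the abundant-gene scale. On the latter the spread within the MCAo groups was smaller, with means of 189.2 ± 27.1 and 170.3 ± 36.5 CPM against 170.2 ± 21.1 and 129.5 ± 23.9 CPM in sham. A pseudogene copy, Gm7709, held 3 to 35 counts per library, against 1444 to 4954 for Hspa5.

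Hsp90b1 (ENSMUSG00000020048, chr10:86690209-86705509, minus strand) was at 233.0, 284.6, 237.8 and 212.9 CPM in CTRL sham and 283.1, 168.1, 168.8 and 254.9 CPM in CTRL MCAo. It was at 186.9, 180.6, 143.0 and 207.7 CPM in YT-iKO sham and 227.7, 142.7, 140.6 and 281.9 CPM in YT-iKO MCAo. In CTRL, MCAo libraries 2 and 3 were below the sham libraries and the others among them, and in YT-iKO libraries 2 and 3 were below and libraries 1 and 4 above. The averaged log2 fold change of Hsp90b1 was -0.00 ± 0.18, with a 95% interval of -0.35 to 0.35. Its exons overlap those of 1810014B01Rik on the opposite strand. Calr (ENSMUSG00000003814, chr8:84841850-84846934, minus strand) had group means of 302.9 ± 48.3, 256.0 ± 62.6, 200.5 ± 55.4 and 230.7 ± 80.3 CPM, for sham and MCAo of CTRL and then sham and MCAo of YT-iKO, and an averaged MCAo log2 fold change of -0.02 ± 0.19. Pdia4 (ENSMUSG00000025823, chr6:47796141-47813430, minus strand) had the closest group means among the chaperones, 95.0 ± 12.4, 93.7 ± 23.0, 85.5 ± 16.3 and 94.03 ± 31.8 CPM in the same order. Its averaged MCAo log2 fold change was 0.06 ± 0.17, with a 95% interval of -0.28 to 0.40.

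Herpud1 (ENSMUSG00000031770, chr8:94386438-94395377, plus strand) ranged from 38.97 CPM in YT-iKO MCAo library 2 to 96.8 CPM in CTRL MCAo library 1. Its group means were 73.9 ± 6.9, 72.8 ± 18.2, 64.3 ± 10.4 and 70.7 ± 25.8 CPM in the same order, and its averaged MCAo log2 fold change was 0.06 ± 0.17. The spread between libraries of 1 group was larger than any difference between group means of Herpud1. By limma-voom with sample quality weights the averaged MCAo comparison had the opposite sign for some of these genes, with Hsp90b1, Calr and Pdia4 called lower, and Ddit3 and Atf4 with them. That fit called 17018 of the 31085 genes in this comparison, and its median log2 fold change over the 9132 abundant genes was -0.30.

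The genes of the integrated stress response, Atf4, Ddit3, Asns and Trib3, did not pass edgeR's test on the first scale in any MCAo comparison. Atf4 (ENSMUSG00000042406, chr15:80255184-80257541, plus strand), whose product is known to be controlled largely at translation, was at 81.8, 83.5, 84.0 and 68.1 CPM in CTRL sham and 102.5, 61.6, 57.1 and 95.7 CPM in CTRL MCAo. In YT-iKO sham it was at 90.7, 73.9, 57.2 and 70.2 CPM and in YT-iKO MCAo at 120.2, 48.1, 56.9 and 114.4 CPM. MCAo libraries 1 and 4 were again high and libraries 2 and 3 low in both genotypes. The averaged log2 fold change of Atf4 was 0.11 ± 0.19, with a 95% interval of -0.27 to 0.49.

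Ddit3 (ENSMUSG00000025408, chr10:127290774-127296288, plus strand) was at 14.1, 10.8, 12.6 and 10.3 CPM in CTRL sham and 13.1, 8.82, 9.70 and 11.5 CPM in CTRL MCAo. In YT-iKO sham it was at 11.95, 14.2, 9.27 and 12.6 CPM and in YT-iKO MCAo at 16.4, 11.3, 9.26 and 13.8 CPM. All 4 groups overlapped, and the averaged log2 fold change was -0.03 ± 0.15, with a 95% interval of -0.33 to 0.26. Its exons overlap those of Mars and Gm4189 on the opposite strand and of another record named Ddit3 on the same strand. How strand entered the counting is not given in the sources used here, so the counts of Ddit3 may include reads of these genes.

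Asns (ENSMUSG00000029752, chr6:7675169-7693254, minus strand), a target of ATF4 that makes asparagine, was at 8.11, 8.43, 6.53 and 7.34 CPM in CTRL sham and 10.3, 7.09, 8.34 and 9.63 CPM in CTRL MCAo. It was at 8.39, 6.01, 6.41 and 5.67 CPM in YT-iKO sham and 11.2, 8.21, 7.97 and 13.5 CPM in YT-iKO MCAo. MCAo and sham overlapped in both genotypes on this scale. The log2 fold change was 0.22 in CTRL, 0.63 ± 0.22 in YT-iKO (p = 0.0104, adjusted p = 0.824 by edgeR) and 0.42 ± 0.16 averaged (p = 0.0142, adjusted p = 0.468), and the exact permutation p of the averaged difference was 0.0110.

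Within each genotype Asns did not overlap between MCAo and sham on the abundant-gene scale, as was so for 7.34% of all genes in CTRL and 3.18% in YT-iKO. The libraries were at 7.58, 7.88, 5.974 and 7.004 CPM in CTRL sham and 7.99, 8.27, 10.5 and 8.75 CPM in CTRL MCAo, and at 7.56, 5.58, 8.60 and 5.96 CPM in YT-iKO sham and 9.88, 11.1, 9.81 and 9.92 CPM in YT-iKO MCAo. The averaged log2 fold change was 0.44 ± 0.12 with adjusted p = 0.0583 by edgeR (2 of 10 members, Asns and Xbp1, beside 5.14% of all genes) and an exact permutation p of 0.000408, the smallest the design gives. With the background as a covariate the adjusted p was 0.0403, and without the 2 libraries of highest background, left out after seeing the data, 0.0343, whereas DESeq2 gave 0.15 and limma-voom 0.263. As a percentage of the summed counts of the 7 members other than Xbp1, Trib3 and Asns, a ratio free of scaling, Asns overlapped in both genotypes, at 0.668% to 0.897% after sham and 0.861% to 1.15% after MCAo in CTRL and 0.642% to 1.10% and 1.03% to 1.36% in YT-iKO. Only 84 to 224 counts per library lie behind Asns, of which the read background would account for 0.835% to 17.9%.

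Trib3 (ENSMUSG00000032715, chr2:152337422-152344032, minus strand), induced by ATF4 and CHOP, was at 11.4, 10.8, 15 and 13.4 CPM in CTRL sham and 16.3, 10.95, 12.01 and 17.8 CPM in CTRL MCAo. It was at 16.1, 16.4, 20.1 and 16.6 CPM in YT-iKO sham and 17.1, 13.97, 16.8 and 24.2 CPM in YT-iKO MCAo. Every YT-iKO sham library was above every CTRL sham library, whereas the genotypes overlapped after MCAo. Its averaged MCAo log2 fold change was 0.12 ± 0.15.

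The comparison of YT-iKO with CTRL asks how loss of Yap and Taz in the endothelium bears on these genes. No member passed edgeR's test after sham, after MCAo or averaged, beside 0.0965%, 0.0708% and 0.28% of all genes. DESeq2 called no member either, and limma-voom called 3 in the averaged comparison, beside 746 of the 31085 genes. By edgeR 2, 0 and 1 members had an unadjusted p under 0.05, beside 670, 464 and 1006 of those genes. For Trib3 the log2 fold change was 0.45 ± 0.21 after sham (p = 0.0394, adjusted p = 0.99), 0.34 ± 0.21 after MCAo and 0.39 ± 0.15 averaged (p = 0.013, adjusted p = 1.00), and the exact permutation p of the averaged difference was 0.0106. On the abundant-gene scale Trib3 passed, with an averaged log2 fold change of 0.50 ± 0.13 and adjusted p = 0.0715 by edgeR, as the only 1 of 10 members, beside 1.78% of all genes. There its level was 10.6, 10.1, 13.7 and 12.8 CPM in CTRL sham, 14.5, 15.2, 26.9 and 17.5 CPM in YT-iKO sham, 12.7, 12.8, 15.1 and 16.1 CPM in CTRL MCAo and 14.99, 18.8, 20.7 and 17.7 CPM in YT-iKO MCAo. As a percentage of the same 7 members' counts Trib3 was at 0.955% to 1.54% in CTRL sham and 1.88% to 3.44% in YT-iKO sham, without overlap, and at 1.36% to 1.66% and 1.56% to 2.86% after MCAo, with overlap. That ratio also moves with the 7 members themselves. After sham Ddit3 had a log2 fold change of 0.01 and the others of the 7 were negative, with Calr at -0.60, Hspa5 at -0.54 and Hsp90b1 at -0.43. With the background as a covariate the adjusted p was 0.0456, and without the 2 libraries of highest background it was 0.169, while 159 to 388 counts per library lie behind the gene.

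Calr and Hspa5 had negative fold changes in YT-iKO. The log2 fold change of Calr was -0.60 ± 0.27 after sham (adjusted p = 0.99 by edgeR), -0.15 after MCAo and -0.37 ± 0.19 averaged (adjusted p = 1.00), and that of Hspa5 was -0.54 ± 0.29 after sham, -0.13 after MCAo and -0.34 ± 0.20 averaged. With the background as a covariate Calr was called (-0.37, adjusted p = 0.0989 by edgeR), and limma-voom called Calr (adjusted p = 0.069) and Hspa5 (adjusted p = 0.0779) lower. On the abundant-gene scale the exact permutation p of the averaged difference, unadjusted, was 0.0274 for Calr, 0.0376 for Hspa5 and 0.00857 for Hsp90b1. None of these genes passed edgeR's test there. On the first scale the same permutation p was 0.062, 0.124 and 0.1065. Between the sham groups 3 of 10 members did not overlap, Hspa5 and Hsp90b1 being lower and Trib3 higher in YT-iKO, beside 3.85% of all genes. After MCAo 0 of 10 did, beside 0.981% of all genes. On the abundant-gene scale Hspa5 and Hsp90b1 overlapped between the sham groups, Trib3 did not, and Xbp1 at 78.7 to 85.8 against 86.2 to 95.5 CPM did not (adjusted p = 0.81), beside 4.49% of all genes without overlap. For the other members the averaged log2 fold changes were -0.29 ± 0.18 for Hsp90b1, -0.12 ± 0.17 for Herpud1, -0.07 ± 0.17 for Pdia4, -0.01 ± 0.19 for Atf4, 0.01 ± 0.24 for Xbp1, 0.01 ± 0.16 for Asns and 0.12 ± 0.15 for Ddit3.

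**Figure D3:**
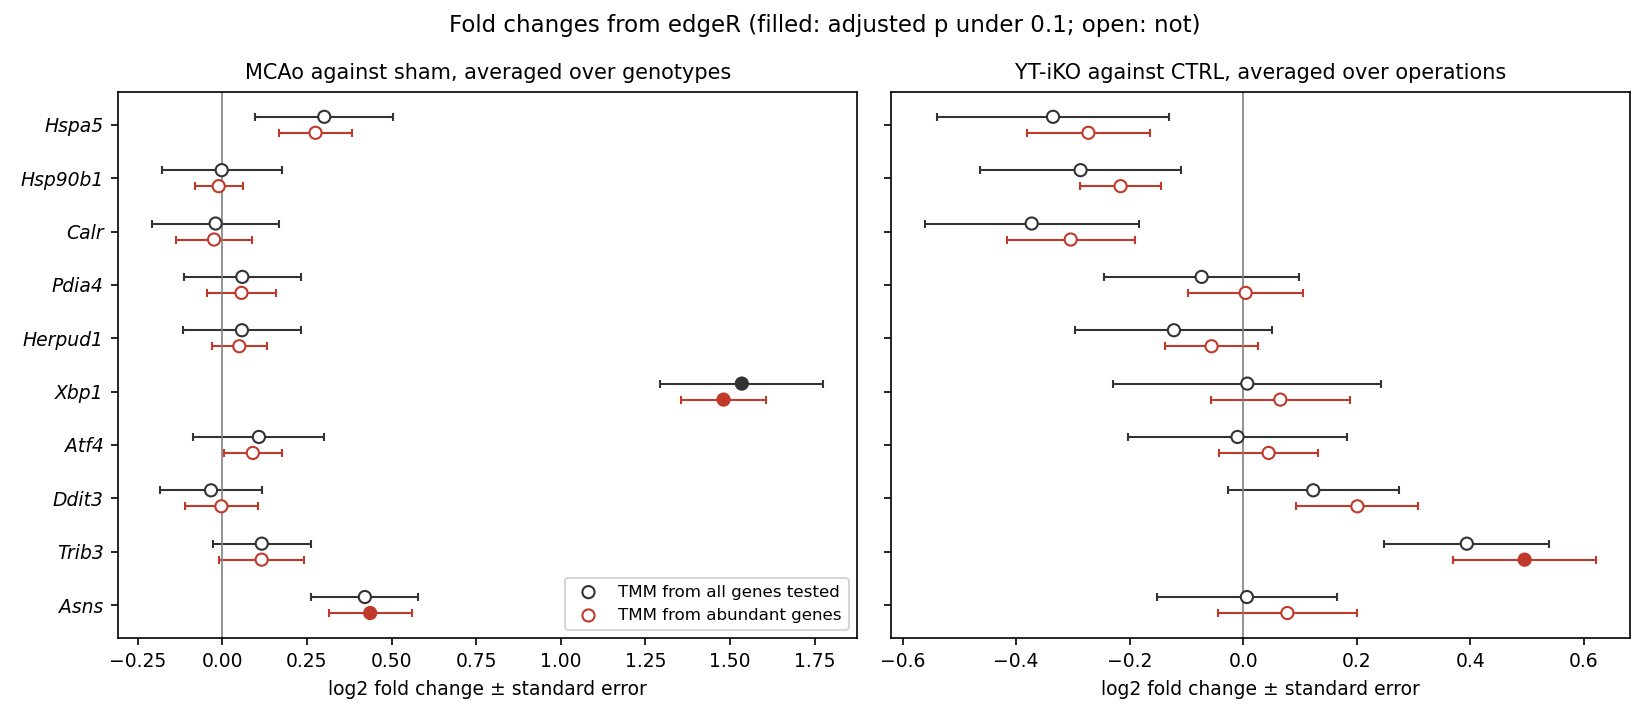
Log2 fold change with its standard error for the 10 members, MCAo against sham averaged over genotypes and YT-iKO against CTRL averaged over operations, on the scale of all genes tested and on the abundant-gene scale. Filled points passed an adjusted p of 0.1 in edgeR: Xbp1 on both scales and Asns on the abundant-gene scale after MCAo, and Trib3 on the abundant-gene scale between genotypes.

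Over the 10 members the median log2 fold change was -0.01 for MCAo in CTRL, 0.17 for MCAo in YT-iKO and 0.08 averaged, beside 0.07, -0.02 and 0.03 over all genes tested. Between genotypes it was -0.20 after sham, 0.05 after MCAo and -0.04 averaged, beside 0.11, 0.03 and 0.09 over all genes. Over the 9132 abundant genes the medians on this first scale were -0.13 after sham, 0.01 after MCAo and -0.06 averaged. For MCAo they were -0.09 in CTRL, 0.05 in YT-iKO and -0.02 averaged. The abundant-gene scale moved the median of all genes up by 0.14 for MCAo in CTRL, 0.19 between the sham groups and 0.12 between genotypes on average, and on it the members' medians were 0.07 for the averaged MCAo comparison and 0.02 between genotypes. These comparisons share libraries, so their values are given side by side and were not correlated.

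The wider pathway was followed in 10 lists with 141 genes in all, members included, all of which were tested. In the averaged MCAo comparison 4 of the 141 were called on the scale of all genes tested, beside 1.23% of all genes. There 19 had an unadjusted p under 0.05, beside 1810 of the 31085 genes tested. On the abundant-gene scale 14 were called, beside 1598 of 31085 genes. DESeq2 called 7, beside 814 of all genes, and limma-voom 83, beside 17018. In the accounts of the lists that follow, calls are those of edgeR on the first scale unless another fit is named. Beside Xbp1 the 4 were Slc7a11, the cystine transporter that feeds glutathione synthesis, and Hspa1a and Hspa1b, which encode the inducible cytosolic HSP70.

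Among 20 ER chaperones and folding enzymes none was called by edgeR, 17 had a positive sign and the median log2 fold change was 0.21, beside 0.03 over all genes. The limma-voom fit called 10 of the 20 lower, beside 17018 of all 31085 genes called in either direction. In that fit the median log2 fold change of the 9132 abundant genes was -0.30. The lowest p was that of Sdf2l1, a component of a BiP complex, at 0.65 ± 0.25 (adjusted p = 0.505 by edgeR). With abundant-gene factors the disulfide isomerase Txndc5 (0.31, adjusted p = 0.0256) and the prolyl isomerase Ppib (0.26, adjusted p = 0.0863) were called higher. Between genotypes edgeR called none of the 20 on the first scale. With the background as a covariate 2 were called lower, beside 783 of all 31085 genes called, and limma-voom called 3 lower, beside 746. On the first scale 0 had a positive sign, beside 19619 of 31085, and the median log2 fold change was -0.23. That median was 0.09 over all genes and -0.06 over the 9132 abundant genes. In that comparison the 10 endothelial markers also had 0 positive signs (median -0.23) and the 5 pericyte markers 0 (median -0.31), and their part in the chaperone values was not tested. Of the chaperones, Txndc5 was called lower in YT-iKO with abundant-gene factors (-0.31, adjusted p = 0.0503).

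Among 16 genes of ER translocation none was called and the median log2 fold change was 0.15, while Sec61b (0.48, adjusted p = 0.033) and Ssr3 (0.43, adjusted p = 0.0144), parts of the translocon and its associated complex, were called with abundant-gene factors. None of the 16 genes of ER-associated degradation was called, the lowest p being that of Selenos (0.26). Their median was 0.08 with 16 positive signs, beside 17232 of 31085 over all genes, and with the background as a covariate 0.02 with 9 positive signs, beside 12730 of 31085. Of 10 sensors and their processing enzymes Xbp1 was the only one called. Ern1, which encodes IRE1, had a log2 fold change of 0.38 (adjusted p = 0.94) that passed with abundant-gene factors at 0.36 ± 0.08 (adjusted p = 0.00947), as did Creb3l2, a membrane-bound transcription factor of the secretory pathway (0.39, adjusted p = 0.00632). The levels of Ern1 were 78.8 ± 8.0 and 95.6 ± 26.6 CPM in sham and MCAo of CTRL, and 74.8 ± 16.9 and 103.8 ± 44.3 CPM in YT-iKO.

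Among 14 genes of the eIF2alpha kinases, eIF2, eIF2B and the phosphatase none was called, with a median log2 fold change of 0.05, and Eif2b2, a subunit of the exchange factor eIF2B, passed with abundant-gene factors (0.43, adjusted p = 0.0149). Of 18 transcription factors of the integrated stress response and their stress targets edgeR called none, and DESeq2 called 2 higher, beside 814 of the 31085 genes tested. By edgeR 5 had an unadjusted p under 0.05, beside 1810 of those genes. Ddit4, an inhibitor of mTORC1, had a log2 fold change of 1.13 ± 0.32 (adjusted p = 0.133 by edgeR) and the death receptor gene Tnfrsf10b 0.70 ± 0.21 (adjusted p = 0.161), and both passed with abundant-gene factors (adjusted p = 0.0247 and 0.000974).

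In the list of 17 genes of amino acid supply under ATF4, Slc7a11 was called after MCAo with a log2 fold change of 0.74 ± 0.19 and adjusted p = 0.089 by edgeR. Its level was 4.26 ± 0.30 and 6.71 ± 1.76 CPM in sham and MCAo of CTRL, and 4.62 ± 1.59 and 8.13 ± 1.43 CPM in YT-iKO. The call was lost with abundant-gene factors (adjusted p = 0.116) and in 12 of the 16 fits that left out 1 library (adjusted p up to 0.25). With abundant-gene factors Slc3a2, the heavy chain that carries several of these transporters, was called beside Asns (0.40, adjusted p = 0.0217). Between genotypes Slc7a1, the cationic amino acid transporter CAT1, was lower in YT-iKO by a log2 fold change of -1.04 ± 0.20 (adjusted p = 0.0258 by edgeR), at 428.6 ± 148 and 355.1 ± 86.4 CPM in sham and MCAo against 844.5 ± 114 and 762.3 ± 236 CPM in CTRL. That call was lost without CTRL MCAo library 4 (adjusted p = 0.14) or without YT-iKO sham library 4 (0.105), and it was the only 1 of the 141 genes called in that comparison. With abundant-gene factors Slc7a5 (-0.54, adjusted p = 0.0113) and Slc3a2 (-0.53, adjusted p = 0.00604), which encode the subunits of a neutral amino acid transporter, were called lower in YT-iKO too.

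Of the 12 cytosolic tRNA synthetases, several of which ATF4 is known to induce, none was called after MCAo and the median log2 fold change was -0.04. None of the 8 mitochondrial chaperones and proteases was called, with a median of -0.09. Among 12 cytosolic heat shock genes Hspa1a (1.85 ± 0.34, adjusted p = 0.00484 by edgeR) and Hspa1b (1.79 ± 0.37, adjusted p = 0.0135) were called higher, with a list median of 0.07. This pair is nearly identical in sequence, so reads could be split between them in counting, and cytosolic heat shock genes belong to a response separate from that of the ER. Hspa1a was at 28.2 ± 11.2 and 33.2 ± 18.4 CPM in CTRL and YT-iKO sham and at 110.4 ± 53.5 and 110.6 ± 73.3 CPM after MCAo.

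**Figure D4:**
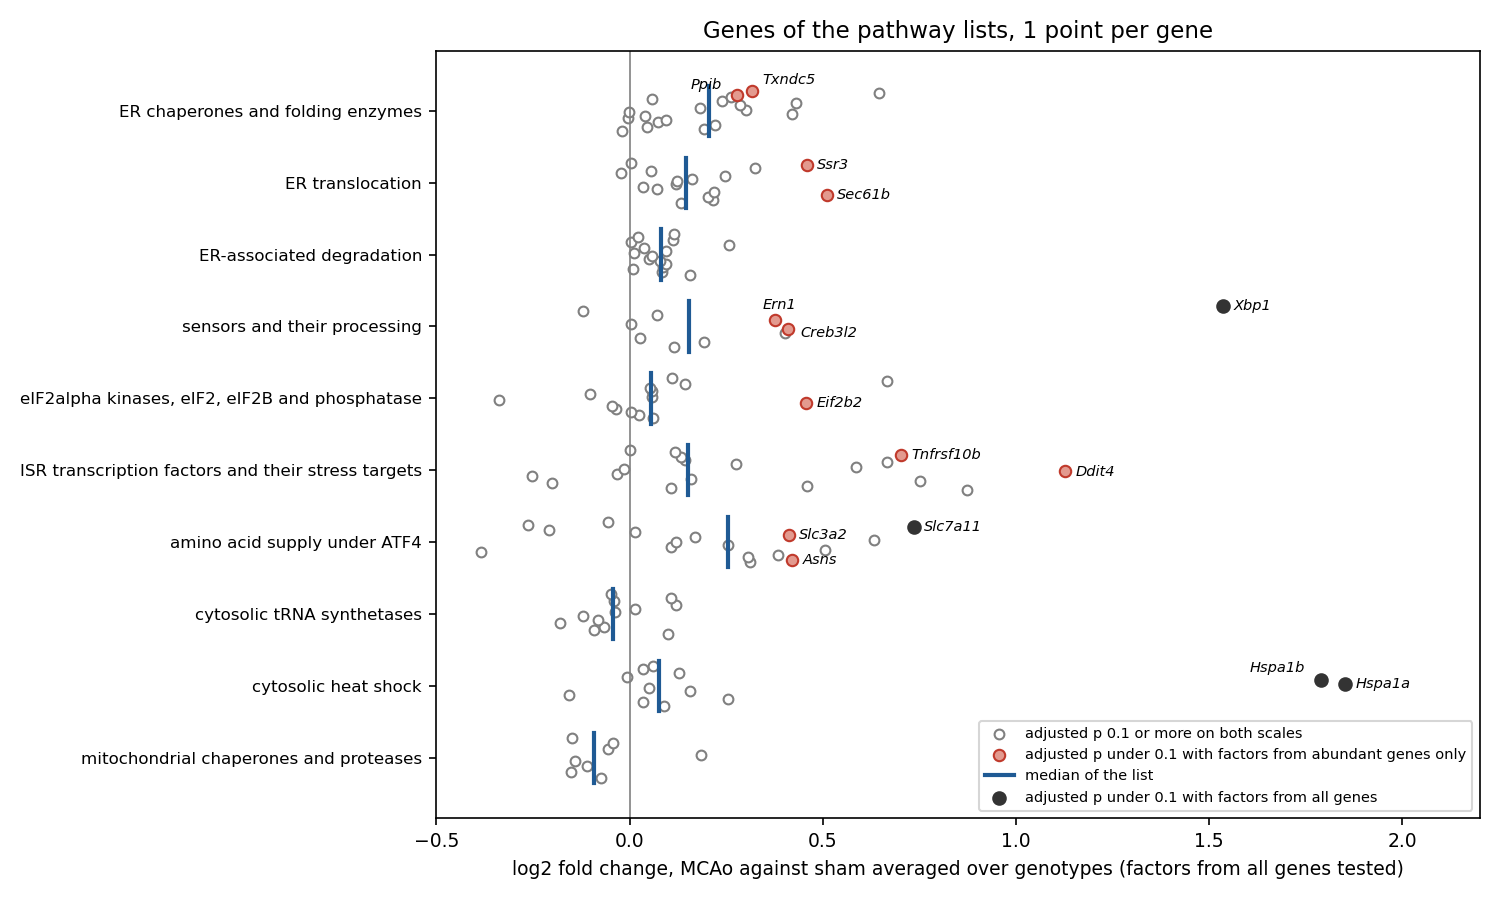
Log2 fold change of MCAo against sham averaged over genotypes (TMM over all genes tested) for each gene of the 10 lists, with 1 point per gene, the list median as a blue line, dark points for genes called on this scale and red points for genes called with abundant-gene factors alone. The list medians lie between -0.09 and 0.26, and the dark points are Xbp1, Slc7a11, Hspa1a and Hspa1b.

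Across the 16 libraries the genes whose log2(CPM + 1) followed that of Xbp1 most closely, among the 9132 abundant ones, were Ptgfrn (Pearson's r = 0.984), Zfp36l2 (0.979) and Tnfrsf1a (0.978). On the abundant-gene scale they were Ptgfrn (0.979), Ace (0.974) and Ggta1 (0.972). For Hspa5 they were Msrb3 (0.970), Calu (0.969) and Hyou1 (0.969), and on the abundant-gene scale Hyou1 (0.959), Calu (0.926) and Msrb3 (0.924), where Hyou1 and Calu encode other proteins of the ER lumen. These r describe libraries that share scaling and background. After the group means were taken out, the 45 pairs of members correlated with r of 0.274 to 0.951 (median 0.759) on the scale of all genes tested and of -0.322 to 0.846 (median 0.111) on the abundant-gene scale, with 45 and 33 of the 45 above 0.

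The promoters of the members were searched for letters that ER stress and ATF4 signalling are known to read, in windows of 300 bases from 250 before to 50 after the RefSeq start of each gene (GRCm38.p6), on both strands. The ER stress response element ERSE, read by ATF6 and XBP1 together with NF-Y, was searched as CCAAT and CCACG with any 9 bases between them and occurred in 0.119% of 32817 windows. ERSE-II was searched as ATTGG and CCACG with any 1 base between them (0.0366% of windows), the unfolded protein response element as TGACGTGG (0.676%) and the C/EBP-ATF response element CARE, bound by ATF4, as TGATGNAA (3.97%). ERSE, ERSE-II and the unfolded protein response element share the letters CCACG, and no matches within a member overlapped. ERSE occurred in 3 of the 10 members, Hspa5, Hsp90b1 and Calr, which are ER chaperones. CARE occurred in Trib3, Asns and Herpud1, and Herpud1 also held ERSE-II.

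The matches are printed 5′ to 3′ on the strand of the gene with the matched letters in capitals, to show the letters that the members share. Positions are counted from the RefSeq start, and the stretches of Hspa5, Trib3 and Asns overlap the gene's own GENCODE record, wholly or in part. The match lies at -65 to -47 for Hspa5 (window chr2:34772020-34772048), at -212 to -194 and, in reverse, at -107 to -89 for Hsp90b1 (chr10:86705633-86705661 and chr10:86705528-86705556, minus strand), and in reverse at -162 to -144 for Calr (chr8:84847070-84847098, minus strand).
Hspa5 ERSE: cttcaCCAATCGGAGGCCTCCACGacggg
Hsp90b1 ERSE: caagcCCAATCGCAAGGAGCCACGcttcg
Hsp90b1 ERSE in reverse: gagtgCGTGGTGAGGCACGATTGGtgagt
Calr ERSE in reverse: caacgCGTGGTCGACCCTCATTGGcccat

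The CARE matches lie in reverse at 14 to 21 for Trib3 (chr2:152344028-152344057, minus strand), at -23 to -16 for Asns (chr6:7693214-7693243, minus strand) and in reverse at -112 to -105 for Herpud1 (chr8:94386306-94386335, plus strand). The ERSE-II match of Herpud1 lies at -52 to -42 (chr8:94386368-94386396, plus strand).
Trib3 CARE in reverse: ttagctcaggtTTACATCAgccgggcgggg
Asns CARE: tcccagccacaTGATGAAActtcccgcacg
Herpud1 CARE in reverse: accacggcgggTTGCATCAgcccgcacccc
Herpud1 ERSE-II: cgggcgctgATTGGGCCACGttggacact

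The window of Xbp1, the member that rose, held none of these letters, and neither did those of Pdia4, Ddit3 and Atf4. A match is a description of the letters and no evidence of binding, and the lack of one says only that these letters are not in this window.

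**Figure D5:**
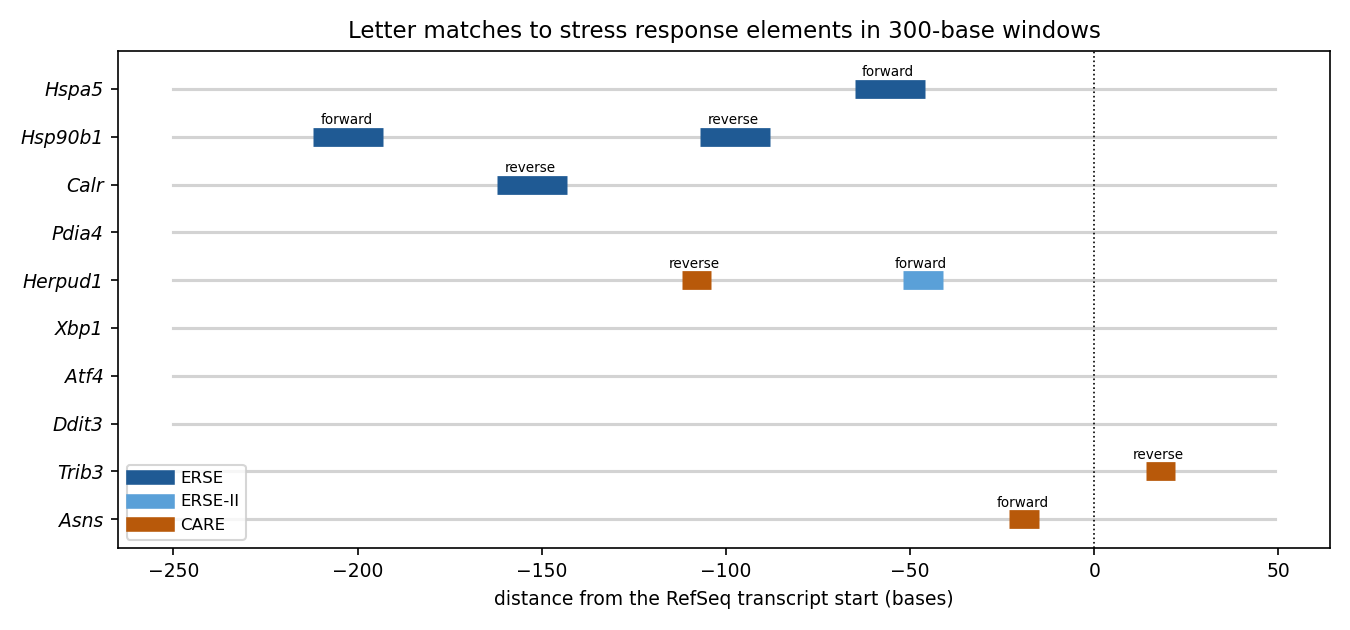
Position of each letter match relative to the RefSeq start (base pairs, from 250 before to 50 after it) for the 10 members, by element. ERSE matches lie between -212 and -47 in Hspa5, Hsp90b1 and Calr, and CARE matches lie in Trib3, Asns and Herpud1.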

How the data were processed

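RNA was amplified with a SMART-Seq kit, which adds no molecular identifiers, from sorted brain endothelial cells of 4 groups of 4 libraries. Per the labels and methods, the authors aligned reads with STAR 2.7.8a to GRCm38 and deposited whole-number counts per gene for all libraries in 1 table; the counting program and strand setting are not given in the sources used here. Every gene listed reached 5 counts in 3 or more libraries. All columns were assigned to samples (0 unused).

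Members, lists, tests and the abundant-gene scale were chosen with earlier results of these data known. Counts were fitted with edgeR 4.0.16 in R 4.3.3 (glmQLFit and glmQLFTest, 4 groups in 1 model, TMM factors, filterByExpr with a minimum count of 10 and total of 15), which kept 31085 of 37003 genes, and p-values were adjusted by Benjamini-Hochberg over all of them with a threshold of 0.1. Exact two-sided permutation tests on log2(CPM + 1) used 70 assignments, or 4900 within strata, with smallest p of 0.0286 and 0.000408. They were run for 60 pairs of member and comparison on each scale, and their p-values were not adjusted. Alternatives were DESeq2 1.42.0, limma 3.58.1 (voom with sample quality weights), other scalings, filters, covariates and sets of libraries. Library totals of 11418262 to 23074547 put at least 84 counts behind each member's value. No 2 replicates agreed within sampling noise (smallest chi-square per degree of freedom 5.54 over 24 pairs). Fits were tested on simulated data. Gene positions are from GENCODE M21, matched by ID for 36861 genes, and promoter windows from RefSeq on GRCm38.p6. Values are named for all members, and in the wider lists for genes called (up to 5) or else the one with the lowest p.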

Additional observations from a re-analysis of the deposited data

Results flagged for a closer look

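Within groups of 4 libraries, the gap of the highest or lowest library to its nearest neighbour was set against the group's range for the 10 members in 4 groups (Dixon's ratio at its 95% critical value). Chance alone gives about 1 in 20, and 3 of 40 exceeded it. Xbp1 in CTRL sham was lowest in library 4 at 90.38 CPM, against 101.0 to 102.2 in the others. Atf4 in CTRL sham was lowest in library 4 as well, at 68.09 CPM against 81.8 to 84.0. Trib3 in YT-iKO sham was highest in library 3 at 20.08 CPM, against 16.1 to 16.6, and that library is one of the 2 with the highest read background.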

How the results depend on the processing

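The rise of Xbp1 averaged over genotypes kept its direction and its call in every alternative run, with log2 fold changes of 1.34 to 1.63 over the fits that left out 1 library and 0.87 with limma-voom. For the other members signs and counts of calls moved with the tool and the scaling, and the cause was not tested. With limma-voom the median MCAo log2 fold change of the 9132 abundant genes was -0.28 in CTRL, -0.31 in YT-iKO and -0.30 averaged. The members' negative values in that fit are to be read beside these medians. Depth limits Asns, with 84 counts in its shallowest library, more than the other members. Over all genes, calls in the averaged MCAo comparison numbered 383 (290 higher, 93 lower), 814 with DESeq2, 17018 with limma-voom, 1598 (1038 higher, 560 lower) with abundant-gene factors, 2146 with the background as a covariate and 1372 without the 2 libraries of highest background, a set chosen after seeing the data. Between genotypes, averaged, they numbered 87 (7 higher, 80 lower), and with abundant-gene factors 552 (182 higher, 370 lower), 244 with DESeq2, 746 with limma-voom, 783 with the covariate and 271 without those 2 libraries.

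Of the 10 members, 0 were called for MCAo in CTRL, against 1 with DESeq2, 3 with limma-voom, 1 with abundant-gene factors, 1 with only the groups compared, 1 with the background covariate and 1 without the 2 libraries of highest background. In YT-iKO 1 was called, against 0 with only the groups compared and 2 without those 2 libraries. Averaged over genotypes 1 was called, against 6 with limma-voom, 2 with abundant-gene factors, 2 with the covariate and 2 without the 2 libraries. Between genotypes, averaged, 0 were called, against 3 with limma-voom, 1 with abundant-gene factors and 2 with the covariate. When 1 library was left out, members called ranged from 0 to 1 for MCAo in CTRL and in YT-iKO.

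Of the 141 genes of the wider lists, for MCAo in CTRL 0 were called, against 2 with DESeq2, 43 with limma-voom, 5 with abundant-gene factors, 5 with only the groups compared, 7 with the covariate and 4 without the 2 libraries, and 0 to 3 when 1 library was left out. Over all genes 67 were called, against 222, 7538, 554, 623, 816 and 363 with DESeq2, limma-voom, abundant-gene factors, only the groups compared, the covariate and without the 2 libraries. In YT-iKO 1 was called, against 21, 3, 0, 4 and 4 with limma-voom, abundant-gene factors, only the groups compared, the covariate and without the 2 libraries, and 0 to 3 when 1 library was left out, while over all genes 99 were called, against 5626, 534, 17, 585 and 466 with limma-voom, abundant-gene factors, only the groups compared, the covariate and without the 2 libraries. For the average 4 were called, against 7 with DESeq2, 83 with limma-voom, 14 with abundant-gene factors, 7 with the CPM filter, 18 with the covariate and 19 without the 2 libraries. Between genotypes DESeq2, limma-voom, abundant-gene factors and the covariate called 1, 3, 1 and 2 after sham (2 with only the groups compared), 1, 4, 1 and 3 after MCAo (1 without the 2 libraries), and 3, 10, 6 and 10 averaged (3 without the 2 libraries), against 0, 0 and 1 in the same order, the last being 0 to 1 when 1 library was left out. Over all genes those 4 fits called 81, 143, 115 and 154 after sham (126 with only the groups compared), against 30, and 92, 257, 181 and 278 after MCAo (67 without the 2 libraries), against 22.

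Not every member was followed through all alternatives in each comparison within a genotype. In YT-iKO the MCAo log2 fold changes of Hsp90b1, Pdia4, Atf4 and Ddit3, for example, were 0.14, 0.14, 0.22 and 0.08. With limma-voom they were -0.37, -0.45, -0.40 and -0.32. For the members and comparisons that were followed, signs changed as listed here. With limma-voom, MCAo log2 fold changes were -0.25 in CTRL, -0.19 in YT-iKO and -0.22 averaged for Hspa5, -0.37 in YT-iKO for Calr, and, averaged, -0.36 for Pdia4, -0.35 for Atf4, -0.045 for Trib3 and -0.20 for Herpud1. Herpud1 was at -0.0050 with the covariate, and without the 2 libraries Hsp90b1 was at 0.048 and Calr at 0.00025. Between genotypes, averaged, Pdia4 was at 0.0042 and Atf4 at 0.045 with abundant-gene factors, and Atf4 at 0.11 without the 2 libraries. In that comparison Xbp1 was at -0.0064 with DESeq2, -0.093 with limma-voom, -0.0063 with RLE factors and -0.027 with no filter, and Asns at -0.013, -0.063, -0.013 and -0.031, while on log2(CPM + 1) with abundant-gene factors they differed by 0.067 and 0.069. Leaving out 1 library gave -0.044 to 0.22 for Hspa5 in CTRL and -0.021 to 0.40 for Calr in YT-iKO. For the averaged MCAo comparison it gave -0.11 to 0.064 for Hsp90b1, -0.13 to 0.076 for Calr, -0.070 to 0.14 for Pdia4, -0.14 to 0.027 for Ddit3, -0.046 to 0.19 for Atf4 and -0.049 to 0.15 for Herpud1. Between genotypes after MCAo it gave -0.37 to 0.0069 for Calr and -0.43 to 0.046 for Hspa5, and averaged -0.20 to 0.0080 for Pdia4, -0.16 to 0.073 for Atf4, -0.089 to 0.055 for Asns and -0.18 to 0.10 for Xbp1.

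The labels do not say that a replicate number marks a shared batch or day, and not every same-numbered pair correlated above 0.1, so the libraries were not treated as paired. Deviations of same-numbered libraries correlated with a median r of 0.259 over 24 pairs, 17 of them above 0.1, against -0.128 over 72 pairs of different numbers. Same-numbered libraries were thus more alike by the median, and what they share was not tested. With the replicate number as a block, 0, 1 and 1 members were called for MCAo in CTRL, in YT-iKO and averaged, beside 119, 132 and 448 of all genes, the wider lists gave 2 calls in CTRL and 2 in YT-iKO, Xbp1 rose by 1.41 averaged, and between genotypes Xbp1 was at -0.024 and Asns at -0.0031.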
